A study of Caenorhabditis elegans with 4 samples.

Results

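The regions described here are the places in the centre of chromosome V of Caenorhabditis elegans that were called as bound by RNA polymerase II (Pol II). They are the regions of the authors' combined list whose midpoint lies on chromosome V between 6.97 and 13.94 Mb in the WS220 build. That span is the middle one of 3 equal parts of the chromosome, whose end is taken as that of its last called region. It holds 507 of the 9051 combined regions, and the arms of V hold 476. The same span holds 367 of 7359 regions in the list of replicate 1 and 401 of 7115 regions in the list of replicate 2. No region of any list crosses an edge of the span.

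Pol II was immunoprecipitated at 20 °C from whole L3 hermaphrodites (larvae of the third stage) with 8WG16, a mouse monoclonal antibody against the heptapeptide repeat at the C terminus of the largest Pol II subunit. Each of the 2 groups has 2 samples, Pol II ChIP and input, where input is sonicated chromatin DNA that was not immunoprecipitated. All 4 samples come from 1 strain, which the labels call OP54: a unc-119(ed3) mutant on chromosome III, rescued by the transgene wgIs54, which carries unc-119(+) together with egl-5 fused to TY1, EGFP and 3xFLAG and was introduced by bombardment. Elsewhere the labels mention a fusion of EOR-1, and OP81 is the strain in the deposited sample table. The files used here do not settle which tagged factor the worms carried. Chromatin of whole larvae pools every tissue, so Pol II in few cells and weak Pol II in many cells cannot be told apart.

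Pol II transcribes all protein-coding genes. The 8WG16 antibody is used as a measure of total Pol II because it recognises the repeat mainly in its unphosphorylated form. Chromosomes of this worm have a gene-dense centre with little meiotic recombination and arms that hold more repeats and recombine more often. Chromosome V is the longest of them and is known for large families of chemoreceptor genes, many of them in clusters on its arms.

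The ChIP libraries held 3262273 uniquely mapped reads in replicate 1 and 4623128 in replicate 2, and the inputs held 1912753 and 1414731. For each region the authors give 1 value, a q-value, which is the p-value of enrichment over input after correction for the number of places tested. It is given below as −log10 q, so that a larger value is a stronger call, and it grows with read depth as well as with Pol II. It is therefore read within a list, and levels of different lists stand side by side without a test. Which replicate had the lower q-value is given for regions and pairs as a description. It is compared only between parts of the same lists. All 3 lists lack their strongest places: ranks recovered from the q-values give the first line of the combined list rank 263, that of replicate 1 rank 153 and that of replicate 2 rank 72. The 262, 152 and 71 stronger places are not analysed here, and how many of them lie in the centre of V is not known.

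Pol II regions lay more densely in the centre of chromosome V than on its arms. The combined list had 72.8 regions per Mb in the centre and 34.2 on the arms, where 476 regions lay over 13.9 Mb. The ratio was 2.13 (95% interval 1.88 to 2.42, two-sided exact binomial p = 6.82e-32, adjusted p = 2.04e-31 over the 3 lists). Replicate 1 had 52.7 regions per Mb in the centre and 22.3 on the arms (ratio 2.36, interval 2.02 to 2.75). Replicate 2 had 57.5 in the centre and 30.1 on the arms (ratio 1.91, interval 1.66 to 2.20). These intervals cover counting error only and treat neighbouring regions as independent, which they are not. Centre and arms differed in the same direction in both replicates, and the intervals of the 3 lists overlap.

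In bases, 7.22% of the centre was covered in the combined list, against 3.94% of the arms. The replicates averaged 5.73% ± 1.69 in the centre and 2.85% ± 0.697 on the arms (SD, n = 2). Replicate 1 covered 6.92% of the centre and 3.34% of the arms. Replicate 2 covered 4.53% and 2.35%. The values do not overlap, since the lower centre (4.53%) is above the higher arms (3.34%). The centre was covered 2.07 times as much as the arms in replicate 1 and 1.92 times in replicate 2. The left arm had 37.6 regions per Mb and the right arm 30.7 in the combined list, so both were below the centre. Unique mappability of reads of 36 bases in centre and arms was not tested.

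Among the 6 chromosomes, V had the least covered centre and the highest ratio of centre to arms. Its 7.22% was the lowest cover of the 6 chromosome centres in the combined list, where the other 5 had 7.65% to 9.32%. It was also the lowest in replicate 1, at 6.92% against 7.44% to 9.51%, and in replicate 2, at 4.53% against 4.89% to 6.46%. By number of regions per Mb it was the second lowest, above the X chromosome only, in all 3 lists. The ratio of centre to arms was, however, higher on V than on any other chromosome. For covered bases the combined list gave 1.83 on V and 1.14 to 1.39 on the others. Replicate 1 gave 2.07 and 1.18 to 1.53, and replicate 2 gave 1.92 and 1.15 to 1.69. The arms of V had the lowest cover of all arms in each list. As a difference in place of a ratio, V did not rank first throughout. Its difference in cover was the largest in the combined list (3.28 points) and in replicate 1 (3.58), but in replicate 2 (2.18) it was below that of chromosome II (2.30). Its difference in regions per Mb ranked 2 of 6 in the combined list and in replicate 2, and 5 in replicate 1. With 6 chromosomes an exact permutation test of which chromosome ranks first cannot give less than p = 0.167, which is the value here, so the rank of V is a description. Each list also lacks its strongest places. In the V centre, 67.2 kb had q below 1e-100 in a replicate but no region in the combined list. How this bears on the order of the 6 chromosomes was not tested.

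**Figure D1:**
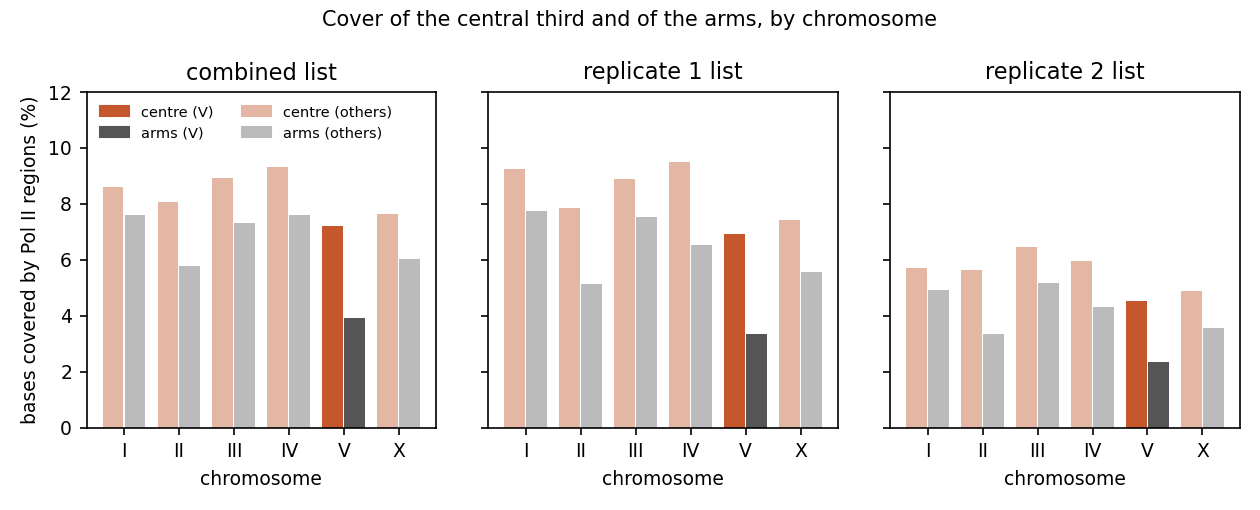
Percent of bases covered by Pol II regions in the central part (left bar of each pair) and in the arms (right bar) of each chromosome, with 1 panel per list and chromosome V in dark colours. In all 3 panels V has the lowest centre and the lowest arms, and its centre exceeds its arms by the largest factor, 1.83 in the combined list.

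In width and strength the regions of centre and arms differed less than in number. The median combined region was 528 bp wide in the centre and 629 bp on the arms. In replicate 1 the medians were 667 bp and 676 bp, and in replicate 2 they were 464 bp and 462 bp, so neither replicate shows the narrower centre of the combined list. The median −log10 q of combined regions was 5.96 in the centre and 5.73 on the arms, with 5.23 and 4.30 in replicate 1, and 4.31 and 3.98 in replicate 2. Regions with q below 1e-50 made up 8.88% of the centre and 8.61% of the arms in the combined list. The centre held 94 regions with q below 1e-20 and the arms 82, spread over 6.97 Mb and 13.9 Mb. Of the regions in the V centre 18.5% had q below 1e-20 and 8.88% had q below 1e-50, against 24.2% and 10.6% over all 9051 regions. By median, the combined regions of the V centre were wider and weaker than all 9051, whose medians were 380 bp and 8.06. This was not particular to the V centre, since the X centre had medians of 690.5 bp and 5.26. In the replicates the share with q below 1e-20 was near that of all chromosomes. It was 20.4% beside 20.4% in replicate 1, and 12.2% beside 12.4% in replicate 2.

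Within the centre the regions ranged from 1 bp to 9137 bp in width, with quartiles of 283 bp and 1126.5 bp. The 20 regions narrower than a 36-base read made up 3.94%. The 54 regions of 2500 bp or more made up 10.7% of the members and held 43.7% of the covered bases. The 50 widest regions alone held 41.6% of them. Wider regions had lower q-values (Spearman's rho = 0.70 between width and −log10 q over the 507 regions of this list, which share libraries and control). Strength was spread unevenly too: the quartiles of −log10 q were 3.35 and 14.9, while the strongest reached 297.

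The 10 strongest combined regions in the centre of V had −log10 q from 167 to 297 and were 1782 bp to 9137 bp wide, with a median of 4356 bp. They are the strongest that the combined list holds, and this list lacks stronger places. Genes are not named for them because no annotation of the WS220 build was used here. Each overlapped a region in both replicates, as did 99.5% of combined regions with q below 1e-50 over all chromosomes. Replicate 1 was the stronger in 9 of the 10. Over all chromosomes it was the stronger in 74.7% of paired regions of any strength. For the 10, the strongest overlapping region reached −log10 q of 52.3 to 237 in replicate 1 (median 119). In replicate 2 it reached 35.4 to 130 (median 61.6). The 10 lay between 7853316 and 13567626, and 5 of them had their start between 10887545 and 11614237.

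The strongest of these 10, from 11118103 to 11124683, was 6581 bp wide. It had −log10 q of 297 in the combined list, with 237 in replicate 1 and 44.5 in replicate 2. In replicate 1 it was 1 unbroken region, whereas in replicate 2 it was split into 4 pieces that covered 57.2% of it. The second, from 9093306 to 9097652, had 257 in the combined list, with 113 in replicate 1 and 130 in replicate 2, and was the only one of the 10 stronger in replicate 2. It was a single region in both replicates, covered to 100% in replicate 1 and 91.0% in replicate 2. The third, from 11225835 to 11229683, had 256 in the combined list, with 152 in replicate 1 and 65.8 in replicate 2.

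The fourth, from 12298262 to 12307398, was the widest combined region in the centre, 9137 bp. It had −log10 q of 254 in the combined list, with 114 in replicate 1 and 75.5 in replicate 2, and lay in 3 pieces in each replicate. The fifth, from 7853316 to 7858497, had 205, 122 and 63.5 in the same order of lists. It was the only one of the 10 in the left part of the centre apart from the second. A compact region of 1782 bp from 11146616 to 11148397 had 188 in the combined list, with 129 in replicate 1 and 59.7 in replicate 2. It was the narrowest of the 10.

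The region from 10887545 to 10891909 had the widest gap between replicates after the strongest one, with −log10 q of 186 in the combined list, with 138 in replicate 1 and 35.4 in replicate 2. That from 11614237 to 11617381 had more even values, 184, 96.1 and 79.8. The second widest combined region, 8400 bp from 13041306 to 13049705, had 178, 52.3 and 47.1 and was cut into 2 pieces in replicate 1 and 5 in replicate 2. The last of the 10, from 13564723 to 13567626, had 167, 116 and 38.1. In all 10, Pol II was called in both replicates, as in 99.5% of combined regions with q below 1e-50 over all chromosomes. The extent and strength of the call differed between the replicates.

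**Figure D2:**
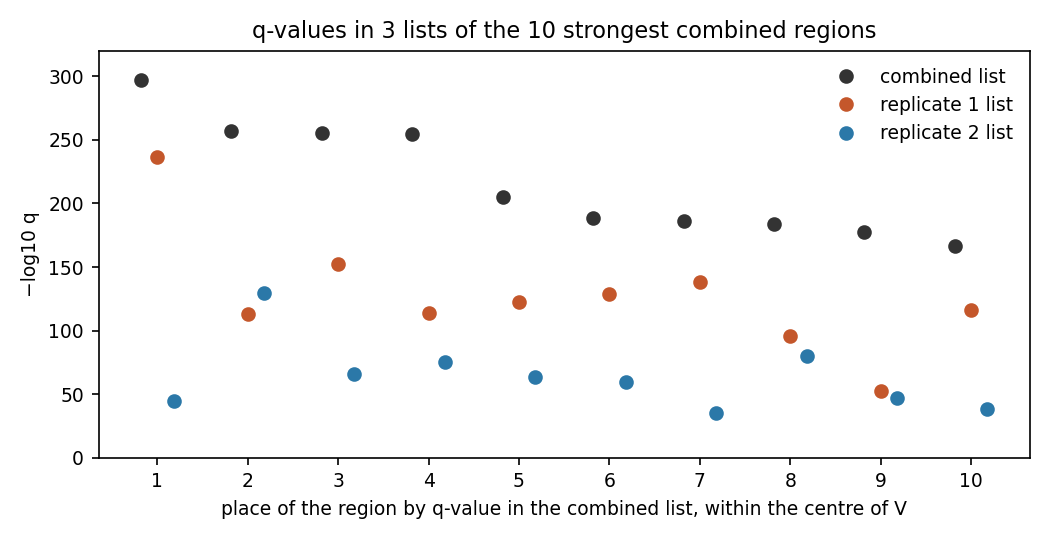
The −log10 q of the 10 strongest combined regions in the centre of chromosome V (x axis, in order of q-value) in the combined list and of the strongest region overlapping each of them in replicate 1 and replicate 2. Replicate 1 lies above replicate 2 in 9 of the 10, and the exception is the second region, with 113 in replicate 1 and 130 in replicate 2.

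Among the 5 widest combined regions, 3 are in the list above. The other two were 6513 bp from 10711747 to 10718259 and 6346 bp from 12811203 to 12817548. The first of these had −log10 q of 138 in the combined list, with 42.0 in replicate 1 and 78.7 in replicate 2, and was 1 region in each. The second had 111, 65.8 and 27.9 and was 1 region in replicate 1 but 4 pieces in replicate 2.

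Of the 507 regions in the centre, 219 overlapped a region in both replicates by at least 1 bp (43.2%, Wilson 95% interval 39.0 to 47.5), where 44.9% did so over all chromosomes. On the arms of V it was 198 of 476 (41.6%), and the difference between centre and arms was 1.60 percentage points with an interval that includes 0 (−4.57 to 7.74). A further 117 regions of the centre overlapped replicate 1 alone (23.1%, beside 26.8% over all chromosomes) and 73 replicate 2 alone (14.4%, interval 11.6 to 17.7, beside 12.2%). The remaining 98 overlapped neither replicate (19.3%, interval 16.1 to 23.0), beside 16.1% over all chromosomes and 19.5% on the arms. Over all q-values together, the share found in both is thus near that of the whole list. Regions found in replicate 2 alone were less common in the centre than on the arms, at 14.4% and 20.4% (difference −5.98 points, interval −10.7 to −1.24), but the centre was near the share of all chromosomes and the arms were above it.

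The regions found in both replicates carried most of the cover. Their median width was 1060 bp, their median −log10 q was 16.5, and they held 73.2% of the bases covered in the centre. Those found in replicate 1 alone had medians of 441 bp and 4.88, those in replicate 2 alone 376 bp and 3.99, and those in neither 208 bp and 2.62. None of the 219 was narrower than 36 bases, whereas 11 of the 98 found in neither were. The median region found in both was covered to 96.7% by replicate 1 and to 59.4% by replicate 2. Of these 219, 177 were a single region in each replicate, 9 were broken into 2 or more pieces in replicate 1 and 38 in replicate 2.

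Whether a region was found in both replicates followed its q-value closely. The combined list was called on both replicates merged, so its q-values rest on the same reads as the replicate calls. A rise of this share with strength is thus in part built in and is only a description. With q of 1e-05 to 0.01, 11 of 213 regions in the centre were found in both (5.16%). With q of 1e-20 to 1e-05 it was 119 of 200 (59.5%), with 1e-50 to 1e-20 it was 45 of 49 (91.8%), and below 1e-50 it was 44 of 45 (97.8%). The arms of V had 5.66%, 58.2%, 95.1% and 100% in the same classes, and the interval of the difference included 0 in each. All chromosomes had 3.43%, 46.5%, 93.1% and 99.5%. In the class from 1e-20 to 1e-05 the V centre (interval 52.6 to 66.1) was thus above the share of all chromosomes and above the 42.5% of the other 5 centres, as the arms of V were. The exception below 1e-50 was a region of 2327 bp from 11884225 to 11886551, chosen after its values were seen. It had −log10 q of 154 in the combined list and 38.9 in replicate 2 and overlapped no region of replicate 1. The replicate 1 list lacks its 152 strongest places, so its absence there is not shown to be an absence of Pol II. The strongest regions found in neither replicate had −log10 q of 6.34 (10932682 to 10932731, 50 bp, and 7891741 to 7894372, 2632 bp) and 6.11 (8287762 to 8287764, 3 bp).

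**Figure D3:**
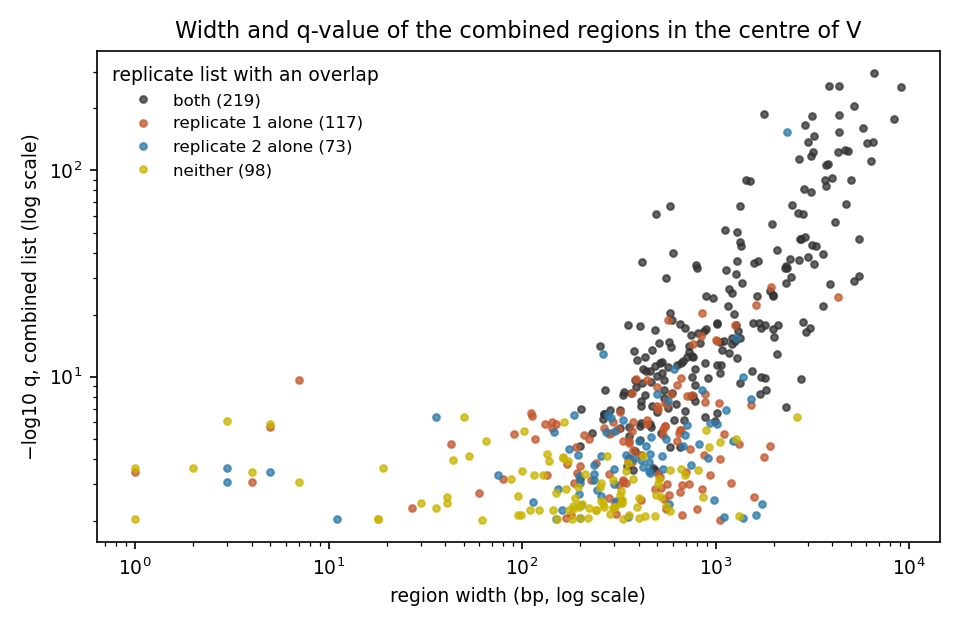
Width in bp and −log10 q of the 507 combined regions in the centre of chromosome V, both on log scales, coloured by which replicate list holds an overlapping region. Regions found in both replicates fill the wide and strong end (median 1060 bp), those found in neither the narrow and weak end (median 208 bp), and 20 regions are narrower than 36 bp.

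Read from the replicates, 234 of the 367 regions of replicate 1 in the centre were found in replicate 2 (63.8%, Wilson 95% interval 58.7 to 68.5), where 57.8% were over all chromosomes. The arms of V had 63.7%. In the stronger 50% of each list the centre was 12.3 points below the arms (a difference of −12.3, interval −22.5 to −1.36). In the other direction, 289 of the 401 regions of replicate 2 in the centre were found in replicate 1 (72.1%, interval 67.5 to 76.2), where 72.4% were over all chromosomes, against 249 of 419 on the arms (59.4%, interval 54.7 to 64.0). That difference was 12.6 points (interval 6.15 to 19.0). The interval covers counting error only and treats regions as independent, although several replicate 2 regions can overlap 1 replicate 1 region. The centre is near the background share, and the arms are below it. The difference lay in weak regions: with q of 1e-05 to 0.01, 59.3% of the replicate 2 regions in the centre were found again and 42.0% on the arms (difference 17.3 points, interval 8.24 to 25.9), beside 56.4% over all chromosomes, while the intervals of the 3 stronger classes include 0. Over all replicate 2 regions the next largest difference was 4.67 points, on the X chromosome, and in the weak class it was 10.4 points, on chromosome I (exact permutation p for V = 0.167 in both, the smallest possible). When an overlap had to cover 50% of each region, the difference over all replicate 2 regions was 2.71 points with an interval of −3.45 to 8.86. In the stronger 50% of each list it was 7.04 points, with an interval of −2.78 to 16.7.

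The replicates gave 231 pairs in the centre in which each region is the largest overlap of the other. Spearman's rho between their −log10 q values was 0.64 and Pearson's r was 0.79, and rho between their widths was 0.79. These describe pairs of 2 libraries called against 1 merged input and carry no test. Replicate 1 was the stronger in 173 of the 231 pairs (74.9%, Wilson 95% interval 68.9 to 80.0) and the wider in 204 (88.3%). It was the wider in 83.8% of pairs on the arms of V and in 78.6% over all chromosomes. The median pair measured 1000 bp in replicate 1 and 535 bp in replicate 2, with −log10 q of 9.29 and 5.45. The replicate 2 region lay wholly inside its partner in 157 pairs (68.0%), with a median of 153 bp between the starts and 152 bp between the ends. On the arms of V it lay inside in 58.9% of pairs, with medians of 135 bp and 131 bp. Over all chromosomes these values were 55.3%, 94 bp and 88 bp. Replicate 1, the library with fewer reads, thus extended beyond replicate 2 by a similar length on both sides.

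On the arms of V the balance of strength was another. Replicate 1 was the stronger in 107 of 197 pairs there (54.3%, interval 47.3 to 61.1), 20.6 points less than in the centre (interval of the difference 11.5 to 29.2). The median ratio of −log10 q, replicate 1 over replicate 2, was 1.56 in the centre and 1.09 on the arms. The share in the centre of V was near the 74.7% of all chromosomes, and that on the arms was the lowest of the 12 centres and arms. The difference between centre and arms was largest on V, followed by 12.9 points on chromosome I, 11.6 on II and 6.49 on IV, while III had 1.03 and X −2.97 (exact permutation p for V = 0.167, the smallest possible). Whether input depth or mapping moves with this was not tested. This comparison was chosen after its values were seen.

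**Figure D4:**
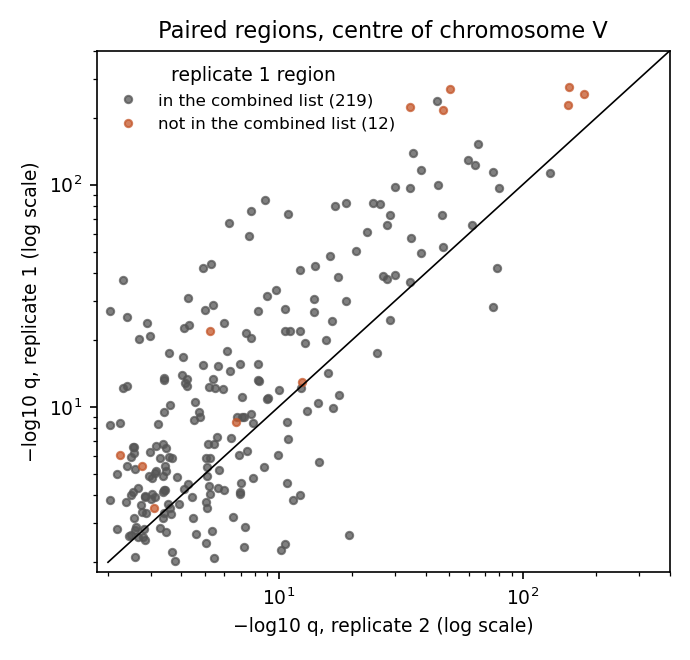
The −log10 q of 231 paired regions in the centre of chromosome V, replicate 2 on the x axis and replicate 1 on the y axis, both on log scales, with the line of equal values. Replicate 1 is above the line in 173 pairs, and the orange points are the 12 pairs whose replicate 1 region overlaps nothing in the combined list, 6 of them with q below 1e-100 in replicate 1.

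The combined list had holes where the replicates were strongest. Of the 14 replicate 1 regions in the centre with q below 1e-100, 6 overlapped nothing in it (42.9%, Wilson 95% interval 21.4 to 67.4), and of the 8 in replicate 2, 7 did (87.5%, interval 52.9 to 97.8). Over all chromosomes these shares were 33.2% and 84.9%. With q from 1e-50 to 1e-20, 1 of 40 replicate 1 regions in the centre was outside it (2.50%, beside 0.846% over all chromosomes), and 6 of 31 replicate 2 regions were (19.4%, beside 12.1%). The holes make 10 places of 2527 bp to 11670 bp, 67.2 kb in all. Whether they are among the 262 stronger places missing from the combined list was not tested. Of the 10, 3 had q below 1e-100 in both replicates.

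These 3 places were strong by any replicate. From 13651817 to 13659631, replicate 1 had −log10 q of 274 and replicate 2 had 154. From 9729508 to 9734375 the values were 257 and 179, and from 10046513 to 10050478 they were 229 and 154. In 3 others replicate 1 was far stronger than the strongest overlapping region of replicate 2: 268 and 74.6 from 11073263 to 11081138, 223 and 34.6 from 13081142 to 13090825, and 216 and 47.1 from 9074042 to 9079574. All 6 were called in both replicates, which were called from separate ChIP libraries.

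The other 4 places were called in replicate 2 alone. They are the regions from 10465717 to 10477386 (−log10 q of 270, 11670 bp), 13907464 to 13910503 (210, 3040 bp), 8417359 to 8427611 (200, 10253 bp) and 11887435 to 11889961 (168, 2527 bp). Neither replicate 1 nor the combined list, which the authors called on both replicates merged, holds any region there. The 3 strongest replicate 1 regions that replicate 2 lacked were far weaker, with −log10 q of 19.2 (8406904 to 8409996), 18.1 (11740531 to 11742930) and 16.7 (12349228 to 12350590), and all 3 were in the combined list. Since the strongest places of each list are not analysed here, a strong place held by a single list is not shown to be a difference between the replicates. Together the 3 lists covered 9.04% of it.

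Bases covered in both replicates came to 232.3 kb, or 3.33% of the centre. Replicate 1 thus shared 48.1% of its covered bases and replicate 2 shared 73.6%. Of these shared bases, 13.5% lay outside the combined list. The same shares of bases were not computed for the arms or for all chromosomes, so they describe the centre alone.

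Along the centre, Pol II cover in the combined list varied 2.64-fold between 13 windows of 500 kb. It varied 2.55-fold in replicate 1 and 3.53-fold in replicate 2. The last window ends at 13468312, and the rest of the span, too short for a full window, is left out. The window most covered by combined regions was 11968313 to 12468312, at 11.4%, and it was among the top 3 of 13 in each list, with 10.1% in replicate 1 and 5.65% in replicate 2. Next came 10468313 to 10968312 at 9.36%, with 7.68% in replicate 1 and 8.24% in replicate 2, then 11468313 to 11968312 at 9.08%, with 6.87% and 4.38%. The value of replicate 2 in the second of these includes most of the 11670 bp region that the other lists lack. All 3 lay in the right part of the centre, where the combined list had 79.5 regions per Mb, against 66.0 in the left part. The lowest window was 8468313 to 8968312, at 4.31%, and it was the lowest in replicate 1 (3.96%) and in replicate 2 (2.34%) as well. It was followed by 10968313 to 11468312 at 5.35% and 9468313 to 9968312 at 5.49%. The first of these was low in the combined list alone: its 6.61% in replicate 1 and 4.48% in replicate 2 took places 8 and 6 of 13. It holds the strongest combined region of the centre and also the 7876 bp place from 11073263 to 11081138 that this list lacks. The replicates ranked the 13 windows alike in part (Spearman's rho = 0.59, Pearson's r = 0.57, windows of the same 2 libraries).

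**Figure D5:**
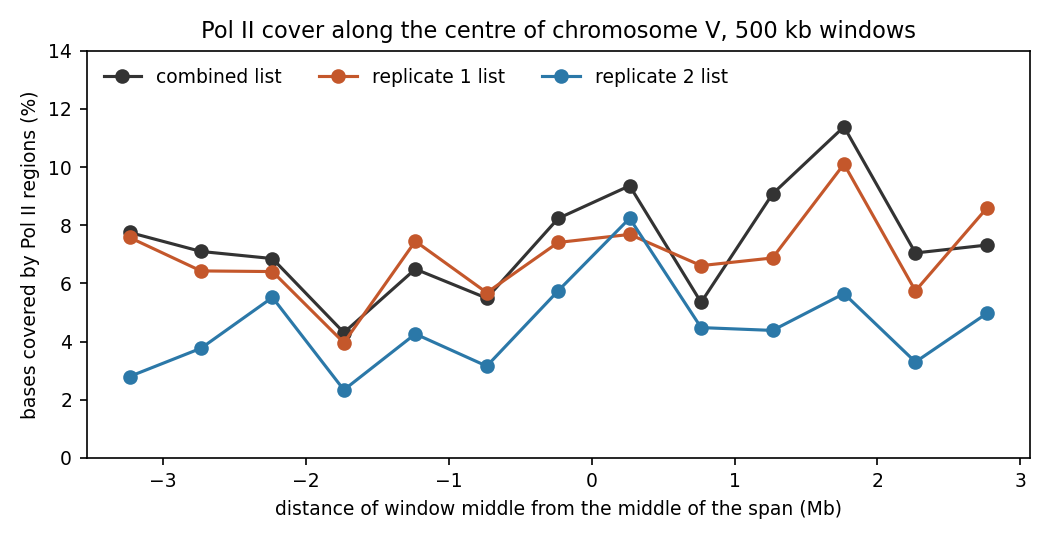
Percent of bases covered by Pol II regions in 13 windows of 500 kb along the centre of chromosome V, by the distance of the window from the middle of the span, for the 3 lists. The low point at −1.73 Mb is shared by all 3 lists (4.31%, 3.96% and 2.34%), and the combined list peaks at 1.77 Mb with 11.4%.

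Combined regions in the centre came in groups separated by long stretches without a combined call. Such a gap is not shown to lack Pol II, since the 10 strong places above lie in gaps of this list. The median gap between neighbouring combined regions was 4054.5 bp, with quartiles of 919.5 bp and 17042.75 bp, against a median of 7840.5 bp on the arms. Of 506 gaps, 186 were shorter than 2000 bp (36.8%), and on the arms 28.1% were. Joined at less than 2000 bp, the 507 regions made 321 groups, of which 202 were single regions and 119 held 2 or more, so that 305 regions (60.2%) had a neighbour that close. The largest group had 7 regions within 7605 bp, from 8402402 to 8410006, and overlapped 4 regions of replicate 1 and none of replicate 2. Among them is the region from 8406904 to 8409996, the strongest that replicate 2 lacks. The next had 6 regions within 10652 bp, from 12103389 to 12114040.

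At the other end, 26 gaps were longer than 50 kb and took up 27.4% of the centre, while gaps of that length took up 62.4% of the arms. The longest ran from 7241170 to 7385909, 144740 bp. Replicate 1 had nearly the same gap, from 7246912 to 7385907, and it was its longest too. The longest in replicate 2 was 233992 bp, from 7447323 to 7681314. At the left edge, 6997012 to 7001131 (−log10 q of 56.4) was the first region inside the span, and 6901030 to 6901637 (8.50) the last before it. At the right edge, 13935498 to 13935697 (3.05) was the last inside and 13962084 to 13962483 (4.78) the first beyond.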

How the data were processed

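The files were made by the authors from 36-base reads, with Eland named for alignment in the deposited investigation file without a version. Per the file headers, PeakSeq made the region calls, in build WS220, against merged input and with ChIP replicates separate or merged, per the deposited sample table. The deposited q-value of each region, which is an adjusted p-value, lies below 0.01, and read counts per run were those deposited by the authors in the sample table. Samples were grouped by title. Separate cultures are not named for the replicates, so the spread between them may be technical.

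Overlap meant at least 1 bp. Shares have Wilson 95% intervals and their differences Newcombe intervals, both for counting error only. These intervals treat regions as independent, which they are not. Region counts were set against length with exact binomial tests. Chromosomes were compared by exact permutation of which of 6 is V. Ranks were recovered as the starting rank, of 2000 tried, at which q times rank ties most neighbouring lines (2879 ties in the combined list, with 2812 in replicate 1 and 3513 in replicate 2, with at most 1 at any other rank). All 21 checks on simulated data were recovered. They check the code on planted answers, with q-values planted in the form that the rank method assumes. They do not test the ranks of the real lists. Python 3.11.15, numpy 2.4.6, pandas 2.3.3, scipy 1.17.1 and matplotlib 3.10.9 were used.

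The span, tests and rules were chosen with earlier results of these data known. Regions named by rule were the 10 lowest q-values, the 5 widest, the 3 lowest in neither replicate, the 3 lowest of each replicate outside the other, the edges, and the 3 most and least covered windows. The list of strong places outside the combined list, the groups of regions and the gaps were chosen after their values were seen. No sequence or gene is given, since the gene table at hand describes another assembly.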

Additional observations from a re-analysis of the deposited data

How the results depend on the processing

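Across 43 alternative values, 26 left the result as it was and 5 had the opposite sign. These 5 concern shares whose reported difference had an interval that includes 0. The 26 include the values for regions wholly inside the span, which could not differ. Leaving out very narrow regions and adding strong replicate regions were alternatives chosen after seeing the data. The ratio of regions per Mb between centre and arms of V stayed past the threshold in 8 alternatives (1.87 to 2.50) and was 1.83 in covered bases, which has no test. Without either replicate in turn it lay between 1.91 and 2.36, the difference in cover between 2.18 and 3.58 points, and the ratio of median widths between 0.987 and 1.00. Merging regions under 2000 bp apart raised the difference in cover to 4.50 points. It moved the ratio of widths from 0.839 to 1.20, so that the centre then had the wider median. Merging adds covered bases to centre and arms by construction, which does not fix the direction of these changes between them. The ratio of widths was 0.807 with the central 50% of the chromosome and 0.814 without regions under 36 bp. The difference in the share found in both replicates was −2.60 points in the stronger 50% of each list, −0.140 with overlap of 50% of both regions and, past the threshold, 7.08 with the central 50%. For replicate 1 regions found in replicate 2 it was −12.3 points in the stronger 50% (interval −22.5 to −1.36), −3.91 with the stricter overlap and −1.64 without regions under 36 bp. For replicate 2 regions found in replicate 1 it was 7.04 and 2.71 points in the stronger 50% and with the stricter overlap, with intervals that include 0. The correlation of q-values was 0.73 with the stricter overlap. The cause of these changes was not tested. Requiring regions to lie wholly inside the span changed nothing, since none crosses an edge. No paired analysis was possible because only the ChIP samples have lists, which leaves no ChIP and input values to pair. How the calls depend on read depth was not tested.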
